A study of Mus musculus with 3 samples.

Results

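Oxidative phosphorylation genes were followed across the cell types of neonatal mouse testis in 3 single-cell libraries. The set held the subunit genes of the respiratory chain and of ATP synthase, taken by gene symbol, and counted 96 of the 27998 genes in the files. Of these, 83 are nuclear and 13 lie on the mitochondrial genome (mt). Complexes were assigned by symbol alone and not by where each protein works, so Ndufa4 counted under complex I. The nuclear genes numbered 36 for complex I, 4 for complex II, 8 for complex III, 18 for complex IV and 17 for complex V. The mt genes numbered 7, 0, 1, 3 and 2. Selection by symbol also took in a few partner proteins: Cox7a2l is an assembly factor of respiratory supercomplexes, and Atp5s and Atp5sl encode proteins related to assembly or coupling and not core subunits.

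The study asked how CDK2 kinase activity bears on male germ cell fate. One library each came from testes of Cdk2-WT (wild type, Cdk2 +/+), Cdk2-HET (Cdk2 +/YS) and Cdk2-Y15S (Cdk2 YS/YS) males. All were untreated, at postnatal day 3, with dissection at 3.5 days, and all shared a mixed background of the strains B6(Cg)-Tyrc-2J/J and FVB/NJ. The sources used here do not give the number of animals per library, and genotype cannot be told apart from animal, background or library. The libraries held 5061, 4958 and 4403 cells and 28651691 to 32025077 unique molecular identifiers (UMIs, each a single captured transcript), and 87 of 14335 distinct barcodes occurred in more than 1 library. Where 3 values of a cell class are given, they are those of wild type, heterozygote and homozygote, in that order.

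The respiratory chain passes electrons from NADH (complex I) and succinate (complex II) through complexes III and IV to oxygen, and complex V uses the resulting proton gradient to make ATP. Complexes I, III, IV and V join nuclear-encoded and mitochondrially encoded proteins, whereas complex II is wholly nuclear-encoded. Several complex IV subunits exist as alternative isoforms with tissue-restricted expression, some of them typical of male germ cells. In the testis, Leydig cells carry out the initial step of steroid synthesis in their mitochondria, and Sertoli cells support the germ cells metabolically.

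Cells were assigned to 4 classes. Germ cells were the authors' deposited clusters A to E, with 69 cells of Cdk2-WT and 72 of Cdk2-Y15S. These clusters held no cells of Cdk2-HET, whose germ cells were not analysed as a class here. Germ cells outside the clusters were not removed, so they could fall into the somatic classes. Sertoli cells (2471, 2144 and 1565) had at least 3 UMIs of Amh, Sox9, Cldn11 and Inha together and at most 2 of Col1a1, Col1a2, Col3a1 and Dcn. Mesenchymal cells (2204, 2492 and 2420) had at least 5 UMIs of those collagen and decorin genes. Leydig cells (84, 79 and 95) had at least 10 UMIs of Cyp11a1, Cyp17a1, Hsd3b1 and Insl3 together and at most 2 of Amh, Sox9 and Cldn11. None of the 96 genes entered these thresholds. The sources used here do not say how the authors chose the germ cells, so the germ comparison may not be independent of its genes.

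The labels were checked against marker lists that held further genes. All 7 germ markers were highest in the germ class, 8 of 10 Sertoli markers in Sertoli cells, 8 of 8 mesenchymal markers in mesenchymal cells and 6 of 7 Leydig markers in the Leydig class. In the Leydig class the summed Sertoli markers reached 1783 to 2079 CPM (UMIs per 1000000 UMIs of the class), against 7668 to 7834 CPM in Sertoli cells. Most of that Leydig sum was Clu, at 1710, 1798 and 1473 CPM, a gene that was highest in the Leydig class itself. The sum alone therefore does not show Sertoli RNA in the Leydig class. All 6 macrophage markers were highest in the Leydig class, at 114 to 563 CPM in sum, and the erythroid markers ranged there from 1.30 to 463 CPM. The part of RNA from other cells in the Leydig results was not tested.

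Sequences are shown first for 2 pairs of mt genes that overlap in part. The mt genes are packed so closely that neighbouring reading frames overlap, and reads from an overlap cannot be given to 1 gene. The stretches below are the overlaps of mt-Atp8 with mt-Atp6 (chrM:7927-7969, 43 bases, plus strand) and of mt-Nd4l with mt-Nd4 (chrM:10167-10173, 7 bases, plus strand) in GRCm38 with GENCODE M21 positions. Capitals mark the start codon of the second gene of each pair.
mt-Atp8 and mt-Atp6: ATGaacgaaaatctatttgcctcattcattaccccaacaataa
mt-Nd4l and mt-Nd4: ATGctaa
In the 11 sums of cells, mt-Atp8 stood at 18.7 to 67.8 CPM and mt-Atp6 at 6436 to 21721 CPM, and mt-Nd4l at 47.3 to 248 CPM and mt-Nd4 at 1887 to 5326 CPM. Each pair is known to share a messenger RNA, and the counts within each pair were unequal in every sum. These 4 genes are reported with that limit.

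Promoters are shown for the isoform pair of complex IV on which the germ cell result turns, Cox7b and Cox7b2, and for Cox6a1, whose window held matches to 2 of the motifs associated with nuclear respiratory genes. RefSeq windows on GRCm38.p6 (250 bases before to 50 after the start) were found for 66 of the 83 nuclear genes. Windows were searched on both strands for CGCATGCG (the core of the NRF1 motif), CCGGAAG (the ETS family motif, bound by GABP), AAGATGGC (YY1), CCAAT and TATAAA. The ETS and YY1 strings can share their AAG. Capitals mark any match.
Cox6a1, chr5:115348909-115349208, minus strand: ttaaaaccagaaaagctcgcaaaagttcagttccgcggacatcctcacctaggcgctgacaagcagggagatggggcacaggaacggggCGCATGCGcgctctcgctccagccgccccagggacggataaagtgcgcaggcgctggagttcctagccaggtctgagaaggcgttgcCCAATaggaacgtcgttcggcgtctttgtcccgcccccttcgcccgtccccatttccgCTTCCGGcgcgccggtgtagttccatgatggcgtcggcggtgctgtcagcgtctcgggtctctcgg
Cox7b, chrX:106015450-106015749, plus strand: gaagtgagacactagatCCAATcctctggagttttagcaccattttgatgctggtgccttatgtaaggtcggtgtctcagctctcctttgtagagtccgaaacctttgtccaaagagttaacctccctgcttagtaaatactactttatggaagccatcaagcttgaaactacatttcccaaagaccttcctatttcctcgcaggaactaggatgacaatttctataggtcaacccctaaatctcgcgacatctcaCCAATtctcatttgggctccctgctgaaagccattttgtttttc
Cox7b2, chr5:71548156-71548455, minus strand: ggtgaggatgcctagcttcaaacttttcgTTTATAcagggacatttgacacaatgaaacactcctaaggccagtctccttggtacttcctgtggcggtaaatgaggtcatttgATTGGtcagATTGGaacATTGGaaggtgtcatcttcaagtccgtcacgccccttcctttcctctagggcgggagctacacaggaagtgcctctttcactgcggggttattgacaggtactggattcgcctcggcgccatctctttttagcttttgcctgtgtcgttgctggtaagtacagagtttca
The Cox6a1 window held the NRF1 string at bases 90 to 97 and the ETS string on the reverse strand at bases 235 to 241. The Cox7b2 window held CCAAT 3 times on the reverse strand, at bases 114, 123 and 131, and TATAAA on that strand at base 30, whereas Cox7b held CCAAT at bases 18 and 257. Among the 66 windows, 8 (12.1%) held the NRF1 string, against 1.87% of all 32851 promoters in the table. The ETS string was in 15 (22.7%, against 8.86%), the YY1 string in 8 (12.1%, against 2.75%), CCAAT in 29 (43.9%, against 37.4%) and TATAAA in 7 (10.6%, against 13.6%). A match describes letters in the window and is neither a binding site nor a cause.

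Summed over the set, the nuclear and mt genes ordered the cell classes differently. The nuclear genes gave 24459, 25824 and 25277 CPM in mesenchymal cells, and 29655, 31723 and 30811 CPM in Sertoli cells. In Leydig cells they gave 38568, 41467 and 39612 CPM, and in germ cells 28524 (Cdk2-WT) and 33492 CPM (Cdk2-Y15S). Leydig cells were therefore highest in every library, mesenchymal cells lowest, and germ cells lay below Sertoli cells in Cdk2-WT and above them in Cdk2-Y15S.

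The mt genes gave 29234, 32034 and 31804 CPM in mesenchymal cells and 64533, 60353 and 68433 CPM in Sertoli cells. In Leydig cells they gave 81850, 84076 and 79913 CPM, and in germ cells 107140 and 99986 CPM. The order mesenchymal, Sertoli, Leydig, germ held in both libraries with germ cells, and the 4 classes did not overlap. For each nuclear UMI of the set there were 1.20 to 1.26 mt UMIs in mesenchymal cells, 1.90 to 2.22 in Sertoli cells, 2.02 to 2.12 in Leydig cells and 2.99 to 3.76 in germ cells. Sertoli and Leydig cells overlapped in this ratio.

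**Figure D1:**
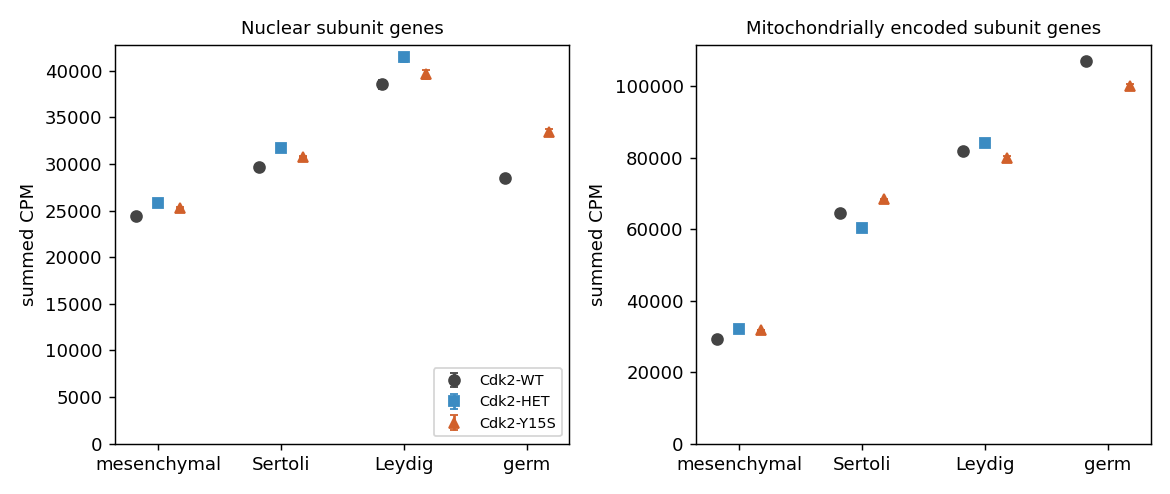
Summed CPM of the nuclear (left) and mt (right) oxidative phosphorylation genes in each cell class; each point is 1 library and bars are exact 95% Poisson intervals, which are smaller than most points. Leydig cells are highest on the left (38568 to 41467 CPM) and germ cells on the right (99986 and 107140 CPM).

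The mt-rich classes also held more cells that a usual quality limit would remove. More than 10% of UMIs came from mt genes in 45 of 69 (65.2%) and 37 of 72 (51.4%) germ cells and in 30.4 to 33.3% of Leydig cells, but in at most 4.21% of Sertoli and 0.803% of mesenchymal cells of any library. Germ cells were also deepest, with medians of 16653 and 18461.5 UMIs per cell against 5141 to 8671 in the other classes. Within a class, the mt share differed with depth in some sums. In Cdk2-WT germ cells its median was 11.4% in the shallower and 11.6% in the deeper cells, and in Cdk2-WT Sertoli cells 6.29% in both. In Cdk2-Y15S germ cells the medians were 10.7% and 9.47%. In Leydig cells they were 8.75% and 7.62% (Cdk2-WT), 8.14% and 8.23% (Cdk2-HET), and 7.27% and 8.03% (Cdk2-Y15S). With cells above 10% left out, 5 of 13 mt genes passed the test as higher in germ cells instead of 10, where 27.8% of all genes were higher without that limit, and 0 instead of 10 as higher in Leydig than Sertoli cells (background 18.8% without the limit; edgeR, 1 at an unadjusted p under 0.05). The limit removes cells by the mt share itself, and mostly germ and Leydig cells, so it lowers the very values compared. The lost calls therefore cannot tell whether the mt differences depend on cell quality. Damaged cells can also carry a high mt share, and their part in these values was not tested.

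Most nuclear genes and every mt gene of the set were higher in Leydig than in mesenchymal cells. With edgeR's quasi-likelihood test on the summed UMIs and a library block (Benjamini-Hochberg adjusted p at most 0.05 over 14182 genes), 51 of 82 tested nuclear genes were higher and 2 lower, where 13.9% of all tested genes were higher and 22.1% lower. The nuclear median was 0.42 on the log2 scale, against -0.23 over all genes. All 13 mt genes were higher, by 0.78 to 1.89. By complex, 27 of 36 nuclear genes of complex I were higher, 2 of 4 of complex II, 7 of 8 of complex III, 10 of 17 of complex IV and 5 of 17 of complex V. Without Cdk2-HET 29 nuclear genes were higher and 0 lower.

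Complex III, which moves electrons from ubiquinol to cytochrome c, had the highest nuclear median of the 5 complexes in this comparison, at 0.92. Its core protein gene Uqcrc1 stood at 145, 146 and 128 CPM in mesenchymal cells and at 314, 422 and 327 CPM in Leydig cells, so that the classes did not overlap (log2 difference 1.18 ± 0.14 SE, adjusted p = 3.5e-06). The small subunit gene Uqcrq rose from 279, 270 and 265 to 805, 726 and 656 CPM (1.27 ± 0.13, adjusted p = 7e-07). Uqcrh, which encodes the hinge protein, did not pass the test, with 704 to 847 CPM in Leydig and 712 to 757 CPM in mesenchymal cells.

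Among genes of complexes I and II, the entry points for electrons, Sdha, Ndufs1 and Ndufa1 had the following levels. Sdha, the flavoprotein of succinate dehydrogenase, had 79.1, 87.8 and 80.9 CPM in mesenchymal and 224, 280 and 244 CPM in Leydig cells (log2 difference 1.43 ± 0.12, adjusted p = 6.2e-08). Ndufs1, the largest core subunit of complex I, had 22.1, 21.9 and 19.9 against 62.4, 73.7 and 51.9 CPM (1.39 ± 0.17, adjusted p = 5.2e-06). The accessory subunit gene Ndufa1 had the largest called difference of the complex, with 93.0, 103 and 112 against 242, 347 and 375 CPM (1.48 ± 0.13, adjusted p = 7.7e-08). Every Leydig value of these genes lay above every mesenchymal value.

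In complexes IV and V the rise was uneven. Cox6a1, the ubiquitous isoform of a complex IV subunit, rose from 499, 513 and 477 CPM in mesenchymal to 1306, 1527 and 1195 CPM in Leydig cells (log2 difference 1.27 ± 0.15, adjusted p = 2.5e-06). The 3 most abundant complex IV genes, Cox4i1, Cox6c and Cox8a, rose by 0.45, 0.52 and 0.43. Cox7a2l was lower, at 475, 509 and 576 against 652, 678 and 755 CPM (-0.57 ± 0.16, adjusted p = 0.01), a call that was lost without Cdk2-HET. In complex V, Atp5b (the catalytic beta subunit) rose by 0.81 ± 0.12 and Atp5g3 (a subunit c gene) by 1.22 ± 0.11, while Atp5e, with 445 to 516 CPM in mesenchymal and 495 to 591 CPM in Leydig cells, did not pass the test. The other lower gene, Cox4i2, the isoform known for its response to low oxygen, had 0 UMIs in every Leydig library: 3 UMIs over the 2129256 of the class would be 1.41 CPM, and mesenchymal cells had 97 UMIs (2.37 CPM), at least 1.68-fold higher. The Cox4i2 call was lost with any library left out.

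Leydig cells were also above Sertoli cells, though less uniformly. Of the nuclear genes 40 of 82 were higher and 6 lower, beside 18.8% and 21.2% of all genes, with a median of 0.31 against -0.12 over all genes. The mt genes were higher for 10 of 13. Without Cdk2-HET the counts were 26 nuclear genes higher and 1 mt gene. The gene with the largest called increase was Ndufv3, a small accessory subunit of the NADH-oxidizing part of complex I: it had 62.0, 53.0 and 69.3 CPM in Sertoli and 221, 213 and 205 CPM in Leydig cells (log2 difference 1.77 ± 0.13, adjusted p = 8.3e-09). Sertoli cells were also below the 134 to 143 CPM of mesenchymal cells for Ndufv3 (-1.31 ± 0.12, adjusted p = 3.6e-08), so that it was the lowest class in all 3 libraries. Germ cells had 171 and 195 CPM.

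Sertoli cells differed from mesenchymal cells in every mt gene and in a mixed way in the nuclear genes. All 13 were higher in Sertoli cells, by 0.43 (mt-Nd6) to 1.42 (mt-Co1), whereas the nuclear genes split into 31 higher and 11 lower of 82, beside 30.6% and 33.3% of all genes, with a median of 0.10 against -0.02. Without Cdk2-HET 15 were higher and 5 lower. The catalytic subunit gene of complex IV, mt-Co1, had 12006, 12843 and 14815 CPM in Sertoli and 3805, 4529 and 5261 CPM in mesenchymal cells (1.42 ± 0.11, adjusted p = 3.8e-09). All Sertoli values of mt-Co1 were above all mesenchymal values. Nuclear genes that rose were Atp5c1, the gamma subunit of ATP synthase (0.86 ± 0.13), Ndufc1 (0.80 ± 0.12) and Ndufa6 (0.65 ± 0.12), and those that fell were Ndufv1 (-0.48 ± 0.13), Sdhb (-0.31 ± 0.12) and Cox4i1 (-0.29 ± 0.10).

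**Figure D2:**
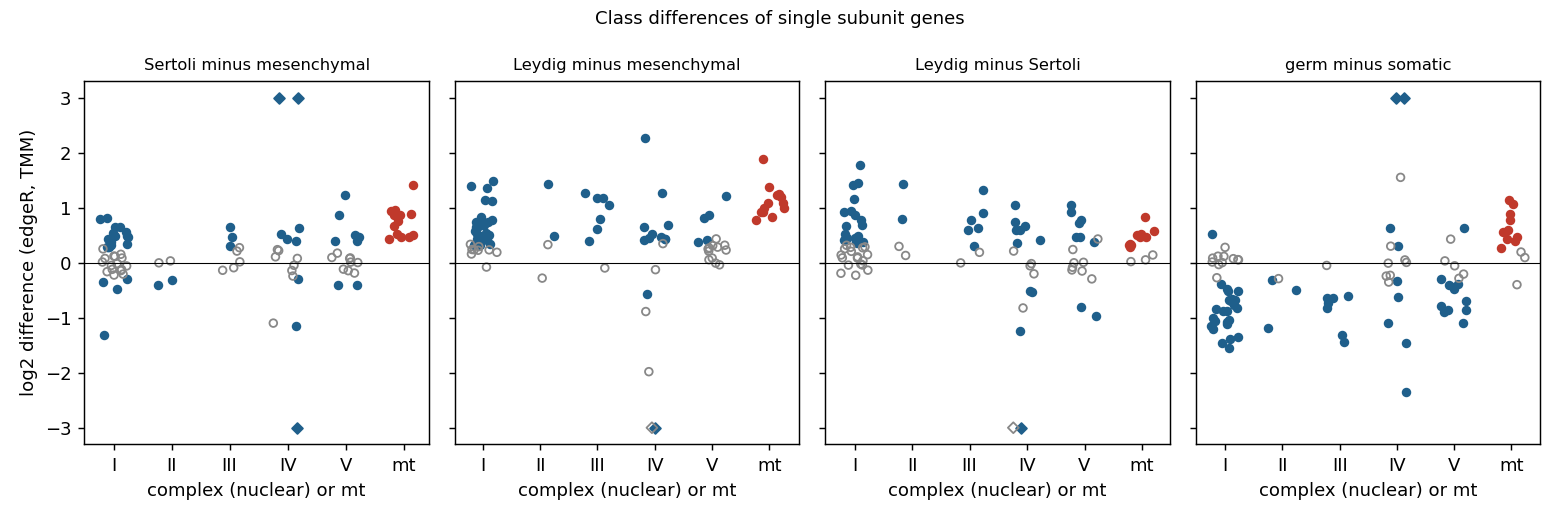
Log2 difference of each oxidative phosphorylation gene (edgeR, TMM scaling) in the 4 class comparisons, by complex for nuclear genes (blue) and for mt genes (red); filled points have an adjusted p of at most 0.05, open points do not, and diamonds at 3 or -3 lie beyond the axis. Nearly all points are above 0 in Leydig minus mesenchymal (71 of 82 nuclear genes), and in germ minus somatic the mt points lie mostly above 0 and the nuclear points mostly below.

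Germ cells separated the nuclear from the mt genes. Against the mean of the 3 somatic classes, 10 of 13 mt genes were higher and 0 lower (edgeR; also 0 at an unadjusted p under 0.05 and with DESeq2), while 50 of 82 nuclear genes were lower and 6 higher, beside 27.8% higher and 31.2% lower among all genes. The nuclear median was -0.49, against -0.11 over all genes, and the mt median 0.47. How many nuclear genes were called depended on the scaling: without composition scaling 28 were lower and 22 higher, and with DESeq2's size factors 12 were higher. Without Cdk2-WT, 20 were higher. Over all genes, the share of calls that were higher was then 64.6% and 56.7% instead of 47.2%. The nuclear median itself was -0.26 with DESeq2's size factors and -0.06 without composition scaling, and the mt median 0.70 and 0.91. The distance of the nuclear median from that of all genes was -0.39 under all 3 scalings, and that of the mt median 0.58. A change of scaling shifts all genes of a comparison by about the same amount. These equal distances therefore could hardly have differed, and they do not show that the calls are stable. The nuclear distance was smaller without Cdk2-WT (-0.18, with a nuclear median of -0.16), with at most 10% mt UMIs per cell (-0.21) and without the deepest 5% of cells (-0.17, with an mt distance of 1.03). Germ cells were the deepest class. Without the deepest 5% of cells, calls in this comparison over all genes fell from 3947 to 952 higher and from 4418 to 1704 lower. Fewer than 10 mt genes were then called higher, as counted in the closing section.

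The 4 largest increases of mt genes in germ cells were of complex I subunits. mt-Nd4l was 1.13 ± 0.12 higher, mt-Nd3 1.07 ± 0.11, mt-Nd2 0.88 ± 0.10 and mt-Nd1 0.78 ± 0.10. The mt-Nd2 level was 3832 and 3927 CPM in Cdk2-WT and Cdk2-Y15S germ cells, above the highest somatic value of 2488 CPM in Cdk2-WT Leydig cells. The complex IV genes mt-Co1, mt-Co2 and mt-Co3 were 0.39, 0.60 and 0.44 higher, and mt-Atp6 and mt-Atp8 0.55 and 0.47 higher. The other complex I gene called was mt-Nd4 (0.27 ± 0.10). It shares a messenger RNA with mt-Nd4l, so the unequal differences of these overlapping genes carry the limit given above. mt-Cytb (0.19 ± 0.10, adjusted p = 0.12), mt-Nd5 (0.09 ± 0.12, adjusted p = 0.52) and mt-Nd6 (-0.40 ± 0.24, adjusted p = 0.17) did not pass the test; mt-Nd6, the only one of them on the other strand, had 9.07 to 31.4 CPM in all sums.

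The nuclear genes that fell in germ cells lay mainly outside complex IV. Lower were 24 of 36 in complex I, 3 of 4 in complex II, 7 of 8 in complex III and 11 of 17 in complex V. Their medians were -0.68, -0.41, -0.69 and -0.40. In complex IV 5 of 17 were lower and 4 higher, with a median of -0.01. Among all genes 31.2% were lower and 27.8% higher, so complex IV was near those shares. Ndufc1 had 129 and 192 CPM in germ cells and 193 to 533 CPM in the somatic sums (log2 difference -1.56 ± 0.14, adjusted p = 7.1e-08). Ndufa6 had 185 and 228 CPM in germ cells and 245 to 677 CPM in the soma (-1.46 ± 0.14, adjusted p = 7.4e-08). For Ndufc1 the Cdk2-Y15S germ value (192.0 CPM) and the Cdk2-WT mesenchymal value (192.7 CPM) were nearly equal. For Ndufa6 both germ values lay below all somatic values. Against this direction, Ndufb9 rose, with 923 and 996 CPM in germ cells and 359 to 734 CPM in the soma (0.51 ± 0.11, adjusted p = 0.00046), and so did Atp5g1, with 1057 and 1471 against 549 to 683 CPM (0.62 ± 0.12, adjusted p = 0.00025).

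The largest germ cell differences lay in complex IV isoforms. Cox7b2, a testis isoform of subunit VIIb, had 148 and 166 CPM in Cdk2-WT and Cdk2-Y15S germ cells and 0 to 2.91 CPM in the 9 somatic sums (log2 difference 7.56 ± 0.25, adjusted p = 5.1e-13). Its ubiquitous partner Cox7b went the other way, with 134 and 210 CPM in germ cells and 287 to 494 CPM in the soma (-1.46 ± 0.16, adjusted p = 4.2e-07). Cox7b2 therefore made up 52.6% (95% exact binomial interval 47.2 to 58.0) and 44.1% (39.8 to 48.5) of the UMIs of the pair in germ cells and at most 0.872% in any somatic sum. As 3-prime counts are not divided by transcript length, such shares compare UMIs and not transcript lengths. Both genes are those whose promoters are printed above. The highest somatic Cox7b2 value, 2.91 CPM, was that of Cdk2-HET mesenchymal cells. The 7 germ markers summed to 7.12, 35.4 and 16.9 CPM in the mesenchymal cells of the 3 libraries. The part of germ cells left in these somatic sums was not tested.

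Cox8c, the testis isoform of subunit VIII, followed the same pattern at a lower share. It had 88.2 and 79.2 CPM in germ cells and 0 to 1.79 CPM in the soma (7.86 ± 0.35, adjusted p = 1.6e-11), which was 6.35% and 5.51% of the UMIs of Cox8a, Cox8b and Cox8c together. Cox8a, the ubiquitous isoform, stood at 1302 and 1359 CPM in germ cells (0.05 ± 0.10, adjusted p = 0.70). Cox8b, known from heart and skeletal muscle, had 2 UMIs in all sums and was not tested. Cox6b2, also described as a testis isoform, did not follow: it had 28.9 and 30.7 CPM in germ cells, 123, 156 and 155 CPM in Sertoli cells, and 91.4 to 112 CPM in mesenchymal and Leydig cells (-2.35 ± 0.17, adjusted p = 6e-09).

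**Figure D3:**
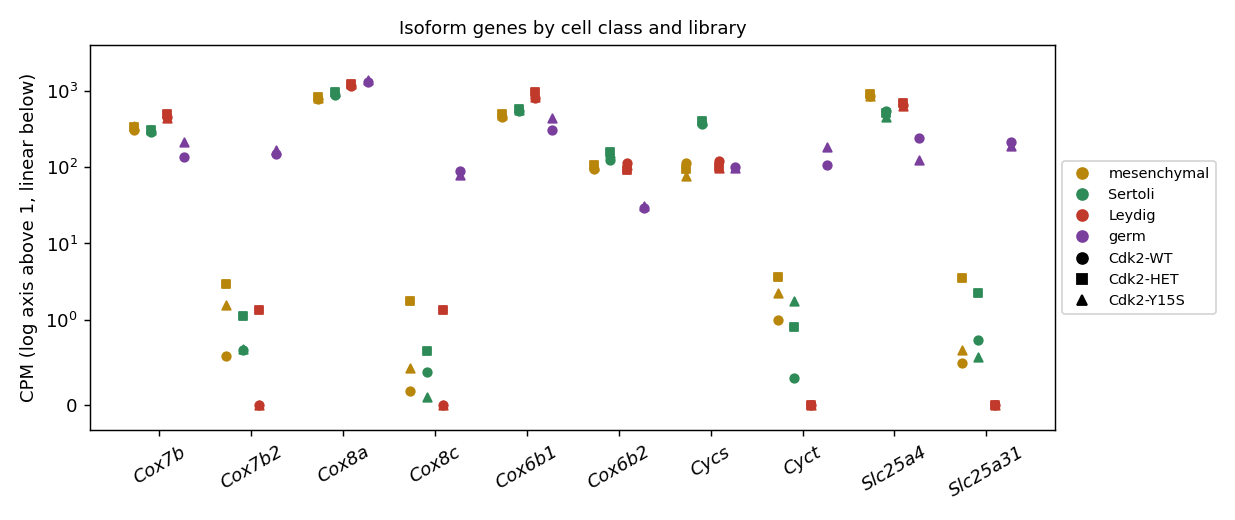
CPM of complex IV isoform genes, of the cytochrome c genes Cycs and Cyct and of the ADP/ATP carrier genes Slc25a4 and Slc25a31, by cell class (colour) and library (shape), on an axis that is logarithmic above 1 CPM. Cox7b2, Cox8c, Cyct and Slc25a31 have 79.2 to 215 CPM in germ cells and at most 3.64 CPM elsewhere, while Cox6b2 is lowest in germ cells.

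Partners of the chain outside the set had the same kind of germ cell isoform. Slc25a31, the germ cell ADP/ATP carrier, had 215 and 190 CPM in germ cells and 0 to 3.64 CPM in the soma (9.99 ± 0.27, adjusted p = 6.1e-13), and Cyct, the testis cytochrome c, had 108 and 182 CPM against 0 to 3.64 CPM (8.68 ± 0.34, adjusted p = 2.8e-11). In the list of 26 further subunits, carriers and partners, these and Coq7 (1.07 ± 0.17) were among 4 higher genes in germ cells, while 15 were lower. Among all genes 27.8% were higher and 31.2% lower. Somatic cytochrome c, Cycs, was 101 and 98.5 CPM in germ cells, within the 75.4 to 120 CPM of mesenchymal and Leydig cells and below the 367 to 400 CPM of Sertoli cells. Cycs, Vdac3 and Ucp2 were the 3 genes of this list that rose most from mesenchymal to Sertoli cells, by 1.94 ± 0.13, 1.90 ± 0.12 and 1.88 ± 0.16.

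Cox7a1 and Cox6a2, isoforms known from heart and skeletal muscle, were higher in Sertoli than in mesenchymal cells at low levels, whereas the muscle isoform Cox8b had 0 UMIs in all 3 Sertoli sums. Cox7a1 had 28.3, 26.1 and 31.5 CPM in Sertoli cells and 1.57, 1.85 and 3.54 CPM in mesenchymal cells (3.51 ± 0.19, adjusted p = 3.4e-11). Leydig cells lay between, at 11.2, 8.19 and 18.2 CPM, and germ cells had 11.5 and 15.7 CPM. Cox6a2 had 12, 8.97 and 9.44 CPM in Sertoli and 1.16, 0.331 and 1.08 CPM in mesenchymal cells (3.46 ± 0.30, adjusted p = 5.7e-08). It had 0 UMIs in all 3 Leydig libraries, so Sertoli cells, with 417 UMIs (10.3 CPM), were at least 7.29-fold higher than the 1.41 CPM that 3 UMIs over the class would give. In the UMIs of their sets, Cox7a1 was 1.87 to 2.13% and Cox6a2 1.33 to 1.84% in Sertoli cells.

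The 3 genes for subunit c of ATP synthase, whose mature proteins are identical, were used in different proportions. Atp5g1 gave 56.5% (54.4 to 58.5) and 60.6% (58.9 to 62.2) of their UMIs in germ cells, 30.9 to 33.0% in Sertoli cells, 36.2 to 37.4% in mesenchymal cells and 25.8 to 28.6% in Leydig cells. Atp5g2 was the main gene in Sertoli cells, with 49.4 to 50.9%, and gave 21.9% and 26.7% in germ cells. Atp5g3 was highest in Leydig cells, with 30.6 to 36.5%, against 17.3 to 19.8% in the other somatic classes. In edgeR's test, which uses TMM scaling and not plain CPM, Atp5g1 passed only for germ cells among the 4 comparisons. Atp5g2 passed for Sertoli minus mesenchymal (0.50 ± 0.13) and germ cells (-1.09 ± 0.14), and Atp5g3 for all but Sertoli minus mesenchymal. The germ call of Atp5g3 was lower, although its 404 and 310 CPM there did not lie below the 285 to 369 CPM of Sertoli and mesenchymal cells.

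The other pathway lists moved with the Leydig class in part. These lists were put together for this comparison, and their counts stand beside the background shares given above for each comparison. From mesenchymal to Leydig cells, 16 of 24 citric acid cycle and pyruvate genes rose and 4 fell (median 0.70), led by Pdk2 (2.01 ± 0.22), Pdhx (1.45 ± 0.19) and Dld (1.41 ± 0.14). Pdk2 is an inhibitory kinase of pyruvate dehydrogenase, and Pdhx and Dld encode parts of that enzyme complex. Pdha1, its catalytic subunit, fell by 1.19 on the log2 scale. Assembly factors counted 17 higher and 1 lower of 47, with Cox17, a copper chaperone of complex IV, at 1.59 ± 0.19. Among genes for mtDNA upkeep, transcription and RNA, 7 of 24 rose and 0 fell (edgeR; also 0 at an unadjusted p under 0.05 and with DESeq2), and Top1mt, the mitochondrial type I topoisomerase, rose from 12.8 to 14.0 CPM in mesenchymal to 60.8 to 88.7 CPM in Leydig cells (2.40 ± 0.19, adjusted p = 2.1e-08). Slc25a3, the phosphate carrier, rose from 472, 522 and 496 to 2275, 2591 and 1788 CPM (1.99 ± 0.12, adjusted p = 1e-09).

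No regulator of mitochondrial genes on the list passed the test as higher in Leydig than in mesenchymal cells. Of 13 tested, 0 were higher (edgeR, also 0 at an unadjusted p under 0.05 and with DESeq2) and 3 lower. Among all genes 13.9% were higher and 22.1% lower, so counts this small do not set the list apart from all genes. The 3 lower genes were Ppargc1a (-3.67 ± 0.99), Pprc1 (-1.25 ± 0.35) and Gabpb1 (-1.07 ± 0.33). From Sertoli to Leydig cells 3 rose, Ppara (5.20 ± 0.88), Myc (2.72 ± 0.31) and Esrra (0.99 ± 0.29), and 2 fell, Gabpb1 (-2.09 ± 0.30) and Pprc1 (-1.07 ± 0.36). From mesenchymal to Sertoli cells 2 were higher, Gabpa (0.54 ± 0.14) and Gabpb1 (1.02 ± 0.13), which encode subunits of the ETS factor GABP, and 6 lower, among them Ppara (-5.07 ± 0.51), Ppargc1a (-4.06 ± 0.39) and Myc (-2.99 ± 0.19). Ppargc1a stood at no more than 5.78 CPM in any sum and Ppara at no more than 9.60 CPM. In germ cells 6 regulators were higher, among them Pprc1 (2.69 ± 0.18) and Hcfc1 (1.36 ± 0.15), and 2 lower, Myc and Yy1. Over all genes, 27.8% were higher and 31.2% lower in germ cells. The shares were 18.8% and 21.2% for Leydig minus Sertoli, and 30.6% and 33.3% for Sertoli minus mesenchymal.

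In germ cells, genes of mtDNA upkeep and RNA split 9 higher and 6 lower of 24. Beside this and the 2 lists below, 27.8% of all genes were higher and 31.2% lower. Counts this small do not set the mtDNA list apart from all genes. Elac2, which processes the ends of mitochondrial tRNAs, rose by 1.83 ± 0.21 and Lrpprc, which stabilizes mitochondrial messenger RNAs, by 1.36 ± 0.22, while Hsd17b10, part of mitochondrial RNase P, fell by 2.75. Assembly factors were 7 higher and 19 lower of 47, with Oxa1l, the inner membrane insertase, at -2.02 ± 0.17 and Cox11 at 1.63 ± 0.18. Citric acid cycle genes were 5 higher and 12 lower of 24. Pdk1 and Pdk3, further kinases that inhibit pyruvate dehydrogenase, rose by 2.17 ± 0.17 and 1.22 ± 0.15, and Idh2 fell by 3.29.

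The authors' germ clusters differed in both parts of the set, and these values are given without a test because the clusters were made from the cells' own expression. Cluster A (36 Cdk2-WT cells) had 27217 nuclear and 101066 mt CPM. Cluster B had 29856 nuclear and 116509 mt CPM in 28 Cdk2-WT cells and 29940 and 116429 CPM in 6 Cdk2-Y15S cells. Cluster C had 29176 and 85429 CPM in 5 Cdk2-WT cells and 30617 and 97171 CPM in 8 Cdk2-Y15S cells. Clusters D and E, with 37 and 21 Cdk2-Y15S cells, had 33804 and 34729 nuclear CPM and 105082 and 89653 mt CPM. The nuclear sums were thus lowest in A and highest in D and E, while the mt sums were highest in B and lowest in Cdk2-WT C and in E. A single cell of cluster A had only 0.0730% of its UMIs from mt genes, and the highest cell of that cluster 16.3%.

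**Figure D4:**
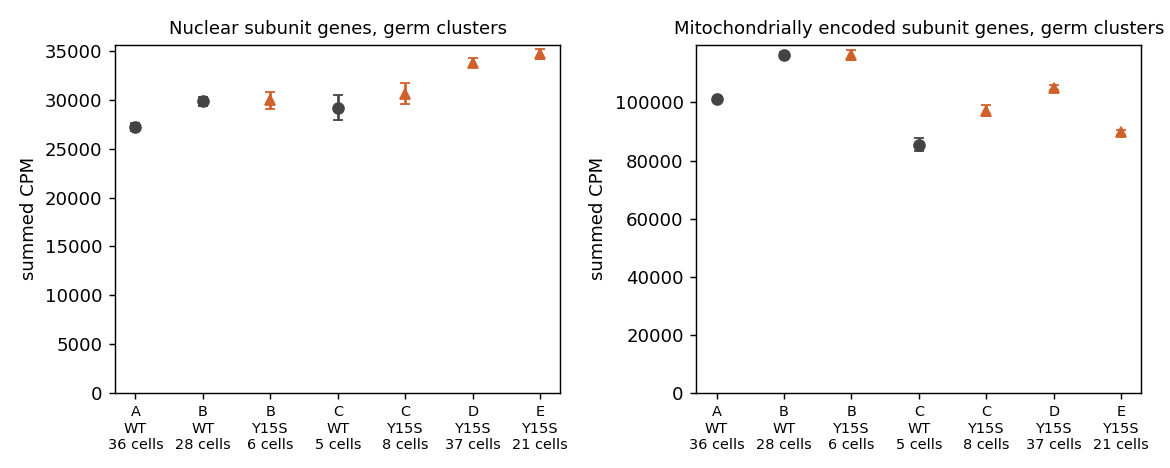
Summed CPM of nuclear (left) and mt (right) oxidative phosphorylation genes in the deposited germ clusters, split by library, with exact 95% Poisson intervals that cover counting error only. Cluster B has nearly equal values in both libraries (29856 and 29940 nuclear, 116509 and 116429 mt CPM).

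Between genotypes there is no replicate and no test, and each ratio below describes these libraries with an interval for counting error only. In germ cells the nuclear sum was 1.17-fold higher in Cdk2-Y15S than in Cdk2-WT (log2 ratio 0.23, 95% interval 0.21 to 0.25), and the mt sum was lower (-0.10, -0.11 to -0.09). With clusters B and C, the only ones held by both libraries, weighted equally, the nuclear ratio was 0.04 and the mt ratio 0.08. With at most 10% mt UMIs per cell, the mt ratio was 0.23. In the somatic classes the nuclear ratios ranged from 0.04 (Cdk2-Y15S Leydig) to 0.10 (Cdk2-HET Leydig) and the mt ratios from -0.10 (Cdk2-HET Sertoli) to 0.13 (Cdk2-HET mesenchymal).

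Few genes of the set reached 1.5-fold between Cdk2-Y15S and Cdk2-WT, and most of these did so in germ cells. Their share in germ cells was below that of all genes in both directions. There 5 of 76 nuclear genes with at least 100 UMIs were 1.5-fold higher and 1 lower, where 11.4% of all such genes were higher and 12.1% lower. The 5 were Atp5h, Atp5g2, Cox7b, Ndufs3 and Uqcr11, and the lower one was Cox7a2l. Of 12 mt genes, 0 reached that fold. In Leydig cells 1 of 74 was higher (Ndufa1, background 5.63%) and 1 lower (Ndufa11, background 7.18%). None reached it in Cdk2-HET Leydig cells (backgrounds 4.28% and 4.76%), in Sertoli cells of Cdk2-HET (2.42% and 1.42%) or Cdk2-Y15S (6.41% and 2.76%), or in mesenchymal cells of Cdk2-HET (2.38% and 1.32%) or Cdk2-Y15S (4.05% and 2.74%).

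Read by cluster, the germ cell differences were not alike. Atp5h, the d subunit of the ATP synthase stalk, was 189 CPM in Cdk2-WT and 366 CPM in Cdk2-Y15S germ cells (log2 ratio 0.96, 0.73 to 1.19). Within cluster B it was 197 CPM (108 UMIs) in Cdk2-WT and 344 CPM (51 UMIs) in Cdk2-Y15S (0.80, 0.29 to 1.30), and within cluster C 227 and 317 CPM on 16 and 34 UMIs (0.48, -0.42 to 1.44). Every Cdk2-WT cluster lay between 177 and 227 CPM and every Cdk2-Y15S cluster between 317 and 383 CPM. In Sertoli and mesenchymal cells Atp5h was 304 to 353 CPM in all 3 libraries, with Cdk2-Y15S ratios of -0.02 and -0.07. In Leydig cells it was 384, 424 and 445 CPM (0.21, -0.03 to 0.46). Atp5g2 was higher in Cdk2-Y15S within cluster B (0.45, 0.10 to 0.79).

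Cox7a2l was nearly equal between the libraries in cluster B and lower in Cdk2-Y15S in cluster C. In all germ cells it was 924 CPM in Cdk2-WT and 486 CPM in Cdk2-Y15S germ cells (-0.93, -1.07 to -0.79), and its share of the Cox7a1, Cox7a2 and Cox7a2l UMIs was 63.2% and 39.4%. By cluster it was 1151 CPM in A, 718 and 661 CPM in Cdk2-WT and Cdk2-Y15S cells of B, and 480 and 472 CPM in D and E. Within cluster B the ratio was -0.12 (-0.46 to 0.20), and within C, on 43 and 37 UMIs, -0.82 (-1.50 to -0.16). Cox7b, with 134 and 210 CPM over all clusters, had a ratio of 0.13 (-0.59 to 0.80) within cluster B, so its intervals do not settle the direction there. Uqcr11, a small subunit of complex III, had ratios of -0.0036 (-0.45 to 0.42) in B and 0.31 (-0.41 to 1.05) in C. Ndufs3, a core subunit of complex I, had 0.64 (-0.02 to 1.28) in B and -0.22 (-1.35 to 0.94) in C.

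Ndufa1 was higher in Cdk2-Y15S than in Cdk2-WT in all 3 somatic classes, with Cdk2-HET between them. It was 93.0, 103 and 112 CPM in mesenchymal, 121, 140 and 161 CPM in Sertoli and 242, 347 and 375 CPM in Leydig cells. Its Cdk2-Y15S ratios were 0.27 (0.16 to 0.38), 0.41 (0.31 to 0.50) and 0.63 (0.34 to 0.93), and in germ cells 0.16 (-0.21 to 0.53). Ndufa11, a membrane arm subunit of complex I, was lower in Cdk2-Y15S, with 349, 304 and 274 CPM in mesenchymal and 518, 422 and 332 CPM in Leydig cells. In Sertoli cells it was 293, 299 and 272 CPM, with Cdk2-HET highest. Over all germ cells it was 370 CPM in Cdk2-WT and 544 CPM in Cdk2-Y15S (0.55, 0.38 to 0.73), but within cluster B it was 412 and 391 CPM and within cluster C 426 and 587 CPM.

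The mt genes did not move together between libraries. mt-Co1 increased in the order Cdk2-WT, Cdk2-HET, Cdk2-Y15S in mesenchymal (3805, 4529 and 5261 CPM), Sertoli (12006, 12843 and 14815 CPM) and Leydig cells (16248, 19062 and 20884 CPM). In germ cells it was lower in Cdk2-Y15S, at 16381 against 19983 CPM (-0.29, -0.31 to -0.26), with 20582 CPM in the Cdk2-Y15S cells and 19974 CPM in the Cdk2-WT cells of cluster B. mt-Nd1 was lower in Cdk2-Y15S than in Cdk2-WT in all 3 somatic classes, most in Leydig cells, with 11094, 10567 and 7908 CPM (-0.49, -0.54 to -0.44). In Cdk2-Y15S Leydig cells the complex I mt genes together were 0.795-fold of Cdk2-WT while the complex IV mt genes were 1.07-fold. In germ cells mt-Nd1 had 13616 and 13562 CPM. Markers in the Leydig class differed between the libraries as well: its 7 Leydig markers summed to 3637, 4204 and 1624 CPM, its 6 macrophage markers to 114, 295 and 563 CPM and its 6 erythroid markers to 11.2, 463 and 1.30 CPM. Its 8 mesenchymal markers summed to 157, 291 and 382 CPM. Their part in the Leydig values of mt-Nd1, Ndufa1 and Ndufa11 was not tested.

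**Figure D5:**
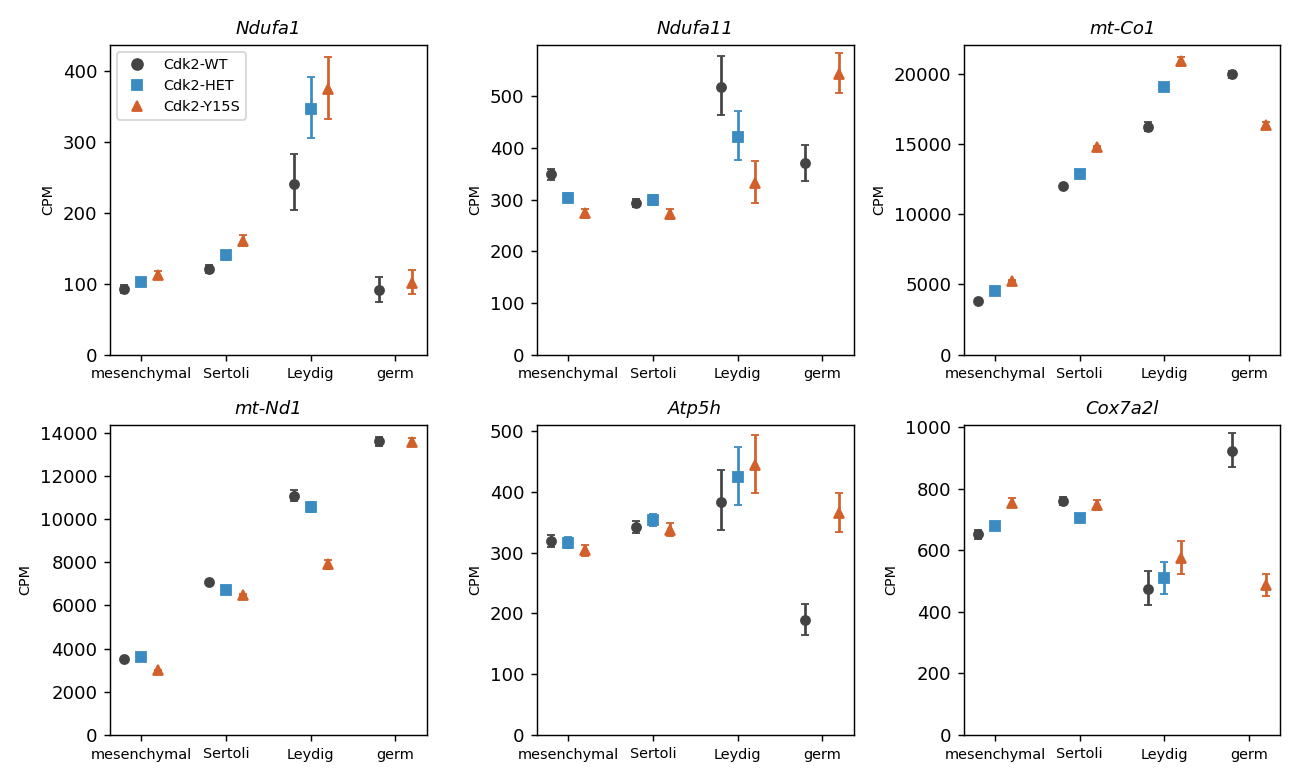
CPM of 6 genes by cell class and library, with exact 95% Poisson intervals as bars, for counting error only. Ndufa1 and mt-Co1 increase from Cdk2-WT through Cdk2-HET to Cdk2-Y15S in somatic classes, Ndufa11 decreases in mesenchymal and Leydig cells, and Atp5h and Cox7a2l differ between the germ cells of the 2 libraries.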

How the data were processed

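Testis cells of 3 libraries were captured on the 10x Genomics 3-prime platform (v2), per the labels. The submitters' processing notes name Cell Ranger 2.1.0, Seurat and mm10; the annotation, and the handling of reads shared with processed pseudogenes, of which many of these genes have copies, are not stated there. The deposited values are counts, as whole UMIs per gene and cell; a further deposited table gives the same unit for germ cells, and 1471899 of its 1471899 compared values equalled the matrix. No limit on mt share and no doublet removal was applied. The members and gene lists were chosen with earlier results of these data known. The rule gave no Leydig threshold, so one was set for this work. Genes were named by rule: all mt genes, the 3 most abundant of each complex, the 3 highest and 3 lowest called in each comparison, the same for genotype ratios, and the isoform sets; Cyct, Slc25a31 and others come from the lists, and some genes printed only with CPM or as complex examples were chosen after their values were seen.

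UMIs were summed per library and class (11 sums of 624996 to 15640463 UMIs) and given as CPM. Class comparisons used edgeR 4.0.16 (TMM, quasi-likelihood, library as a block) on genes with at least 10 UMIs in at least 2 sums; 95 of 96 members passed. The SE is the log2 difference over the root of F. P-values measure the spread over these libraries only. On data simulated for Leydig minus mesenchymal (13870 genes), 32% of 1.5-fold and 94% of 2-fold changes were recovered, with 13 false calls among 13670. Genotype ratios have exact conditional binomial 95% intervals, with 0.5 UMI added where a sum was under 20, and no test. Intervals cover counting error only. Gene lists lost Ndufaf8, Twnk and Mrpp3, which have no entry under these symbols, and 1 assembly factor and 2 regulators to the filter. Alternatives, including DESeq2 1.42.0, are in the closing section.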

Additional observations from a re-analysis of the deposited data

Results flagged for a closer look

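The mt sum moved in opposite directions in different cell classes of the same library pair, each with a counting interval on its own side of 0. For Cdk2-Y15S over Cdk2-WT the log2 ratio was -0.10 in germ cells and 0.12 in mesenchymal cells, a difference of -0.22. The germ ratio was 0.0810 when clusters B and C had equal weight, and 0.234 with at most 10% mt UMIs per cell, so that germ and mesenchymal cells then no longer went in opposite directions. For Cdk2-HET over Cdk2-WT the mt ratio was -0.10 in Sertoli cells and 0.13 in mesenchymal cells, a difference of -0.23. With 1 library per genotype neither difference was tested.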

How the results depend on the processing

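No paired analysis of genotypes was possible because each genotype has 1 library, so the groups share fewer than 2 replicate numbers. The class comparisons did pair the classes of each library, through the library block. Of the alternatives for the 16 class counts, 162 stayed within 1.5 times, 17 were lower and 5 higher; the cause was not tested. With each library left out in turn (a lone germ library is then assumed to vary like the other sums), nuclear genes higher in Sertoli than mesenchymal cells numbered 15 to 43 and lower 5 to 14, those higher in Leydig than mesenchymal cells 29 to 66 and lower 0 to 1, those higher in Leydig than Sertoli cells 26 to 48 (mt 1 to 11), and those higher in germ cells 5 to 20; without Cdk2-HET the first 6 of these were lowest, and 20 nuclear genes were higher in germ cells without Cdk2-WT. Without composition scaling, 7 nuclear genes were lower in Sertoli and 1 in Leydig than in mesenchymal cells, and germ cells had 22 higher and 28 lower; DESeq2 size factors gave 12 higher in germ cells, and the DESeq2 test 14, with 1 lower in Leydig than mesenchymal cells. With at most 10% mt UMIs, 0 nuclear genes were lower in Leydig than mesenchymal cells, 0 mt genes higher in Leydig than Sertoli and 5 higher in germ cells. As that limit selects cells by the mt share itself, its mt counts do not show how stable the mt differences are. Stricter class thresholds gave 11 nuclear genes higher in germ cells; without the 5% of cells with the most UMIs, 2 nuclear and 3 mt genes were higher there. Without composition scaling the share of all calls that were higher in Leydig than mesenchymal cells was 50.3% instead of 38.6%.

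Of the 24 named class differences none changed sign in 284 alternatives and 14 lost the call, for Cox4i2, Cox7a2l and Ndufs6 (Leydig minus mesenchymal) and Cox7b2 (Sertoli minus mesenchymal). Of the alternatives for genotype sums, 30 stayed within the counting interval, 23 moved and 3 changed sign. With B and C weighted equally, the germ Cdk2-Y15S ratio was 0.0368 (nuclear) and 0.0810 (mt, reversed). With at most 10% mt UMIs, the Cdk2-Y15S ratios were 0.193 (germ nuclear), 0.234 (germ mt, reversed), 0.0922 (Sertoli mt), 0.100 (mesenchymal mt), 0.00480 (Leydig nuclear) and -0.139 (Leydig mt), and the Cdk2-HET ratios -0.0884 (Sertoli mt), 0.0952 (mesenchymal mt), 0.0497 (Leydig nuclear) and 0.00299 (Leydig mt). The mt ratios among these come from cells selected by the mt share itself. Without the deepest 5% of cells, the Cdk2-Y15S ratios were 0.399 (germ nuclear), 0.0640 (Sertoli nuclear), 0.0829 (mesenchymal mt), 0.0118 (Leydig nuclear) and -0.106 (Leydig mt), and the Cdk2-HET ratios -0.105 (Sertoli mt) and 0.0913 (mesenchymal mt). With stricter thresholds the Cdk2-Y15S ratios were 0.112 (mesenchymal mt), 0.0817 (Leydig nuclear) and 0.0796 (Leydig mt, reversed). Scaled to UMIs outside the mt genes, they were -0.111 (germ mt) and 0.0907 (Sertoli mt), and for Cdk2-HET 0.0908 (Sertoli nuclear) and -0.103 (Sertoli mt).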
